A study of Mus musculus with 12 samples.

Results

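The genes described here encode the subunits of the mitochondrial respiratory chain and of ATP synthase, with the assembly and supercomplex factors that share their names. Probes were taken where the platform's gene symbol starts with Nduf, Uqcr, Cox4 to Cox8 or Atp5, or is Sdha to Sdhd, and where the detection p-value was under 0.01 on at least 3 of 12 arrays. Of 45281 probes on the array, 114 carried such a symbol and 111 passed the detection rule. These 111 members read 79 genes and belong to the 18185 probes tested. They comprised 50 probes (34 genes) for complex I, 4 probes (3 genes) for complex II, 7 probes (6 genes) for complex III, 15 probes (12 genes) for complex IV, 25 probes (16 genes) for ATP synthase and 10 probes (8 genes) for assembly and supercomplex factors. On all 12 arrays 102 members were detected, and 9 members were detected on 3 to 11 arrays.

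The study measured total RNA on Illumina bead arrays, with 3 replicates in each of 4 groups of mouse cells. Induced pluripotent stem cells made with human Nanog (hNanog iPS) or with mouse Nanog (mNanog iPS) were set beside embryonic stem cells (ES) and neural stem cells that lack Nanog (NS). All carry the strain label E14Tg2A (129). The iPS and ES cells grew in serum-free N2B27 medium with LIF, 3 µM of the GSK3 inhibitor CHIR99021 and 1 µM of the MEK inhibitor PD0325901, and no medium is stated for the NS cells. The labels do not say whether replicates were separate cultures or clones, so each p-value reflects the spread among these 12 arrays, which may be technical. The species of Nanog and the clone or culture cannot be told apart, nor can cell type and culture medium in any comparison with NS cells. In such bulk samples, fewer cells of a type and less RNA per cell cannot be told apart.

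Complexes I and II pass electrons from NADH and succinate to ubiquinone, complex III passes them on to cytochrome c, and complex IV hands them to oxygen. Complexes I, III and IV pump protons as they do so, and ATP synthase uses the returning protons to make ATP. Most subunits are made in every cell type, but several subunits of complex IV have a second gene used mainly in heart and muscle or in testis. Pluripotent stem cells are known for drawing much of their ATP from glycolysis while keeping a working respiratory chain.

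The labels were set against marker genes. All 9 pluripotent markers were detected on every hNanog iPS, mNanog iPS and ES array, and all 9 tested neural stem markers on every NS array. Of the pluripotent markers 3, Esrrb, Dppa5a and Klf4, were also detected on every NS array. Their group means were 10.51 to 15.04 in the pluripotent groups, against 6.44, 5.47 and 5.86 in NS cells. Of the neural stem markers Vim was detected on every pluripotent array and Sox9 on every mNanog iPS array. Probes detected per array numbered 13654 to 16776, and arrays of 1 group correlated at 0.988 to 0.996. The arrays fell into 6 brighter ones, with a mean signal of 470.3 to 561.9, and 6 dimmer ones at 317.5 to 332.2. Every group held both kinds, but not in equal numbers. The dimmer arrays were number 3 of hNanog iPS, 1 and 2 of mNanog iPS, 2 and 3 of ES and 2 of NS. Brightness was therefore not balanced between the groups. The 3 tested fibroblast markers were detected on all 3 mNanog iPS arrays. Col1a1 stood there at 8.07, 8.13 and 8.23 on the log2 scale and Dcn at 8.18, 8.71 and 8.69, and neither was detected on an hNanog iPS, ES or NS array. The mean of the fibroblast list was 7.68 to 8.01 on mNanog iPS arrays, against 4.55 to 4.77 on hNanog iPS arrays, 4.50 to 4.59 on ES arrays and 4.96 to 5.10 on NS arrays. Of the other 4 listed genes, Col3a1 was detected on fewer than 3 arrays and the rest were not analysed here. The part of such cells in the results of the mNanog iPS group was not tested.

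Genes for tissue forms of complex IV subunits, Cox6b2 and Cox7a1, held the largest rises among the members against NS cells, while another such form, Cox8b, was detected in NS cells alone. Their promoters are shown beside those of Cox6b1 and Cox7a2, the widely used counterparts of Cox6b2 and Cox7a1. The promoter of Cox6a1, a widely used form of another subunit, is shown too. No counterpart of Cox8b is shown. Sequences are the 250 bases before the annotated start, credited to RefSeq (GRCm38.p6), written 5′ to 3′ on the gene's strand, with each CpG in capitals. The testis form Cox6b2 (chr7:4753095-4753344, minus strand), the heart and muscle form Cox7a1 (chr7:30183921-30184170, plus strand) and the heart and muscle form Cox8b (chr7:140900447-140900696, minus strand) come first. The widely used forms Cox6b1 (chr7:30626115-30626364, minus strand), Cox7a2 (chr9:79759854-79760103, minus strand) and Cox6a1 (chr5:115348959-115349208, minus strand) follow.
Cox6b2: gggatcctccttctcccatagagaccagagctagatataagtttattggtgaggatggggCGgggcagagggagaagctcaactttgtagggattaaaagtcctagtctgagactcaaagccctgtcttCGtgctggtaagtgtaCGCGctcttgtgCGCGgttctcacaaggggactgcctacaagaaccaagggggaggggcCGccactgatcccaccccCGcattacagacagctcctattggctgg
Cox7a1: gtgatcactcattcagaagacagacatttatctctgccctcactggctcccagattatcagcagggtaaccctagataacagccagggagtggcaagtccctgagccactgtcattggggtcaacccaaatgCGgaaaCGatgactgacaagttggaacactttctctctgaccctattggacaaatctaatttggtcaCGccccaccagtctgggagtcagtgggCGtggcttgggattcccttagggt
Cox8b: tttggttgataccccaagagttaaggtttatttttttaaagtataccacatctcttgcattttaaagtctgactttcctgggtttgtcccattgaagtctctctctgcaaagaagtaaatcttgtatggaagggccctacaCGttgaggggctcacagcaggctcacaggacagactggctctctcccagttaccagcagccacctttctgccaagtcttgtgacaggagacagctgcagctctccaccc
Cox6b1: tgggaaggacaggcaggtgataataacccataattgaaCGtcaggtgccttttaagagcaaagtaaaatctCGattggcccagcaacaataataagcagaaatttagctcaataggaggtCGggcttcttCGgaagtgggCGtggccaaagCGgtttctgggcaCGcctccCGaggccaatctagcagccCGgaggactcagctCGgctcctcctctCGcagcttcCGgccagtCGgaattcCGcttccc
Cox7a2: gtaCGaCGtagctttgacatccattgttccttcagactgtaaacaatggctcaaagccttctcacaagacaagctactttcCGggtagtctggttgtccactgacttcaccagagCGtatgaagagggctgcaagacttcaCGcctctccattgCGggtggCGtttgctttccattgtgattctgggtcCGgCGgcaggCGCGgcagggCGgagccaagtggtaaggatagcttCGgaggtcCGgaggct
Cox6a1: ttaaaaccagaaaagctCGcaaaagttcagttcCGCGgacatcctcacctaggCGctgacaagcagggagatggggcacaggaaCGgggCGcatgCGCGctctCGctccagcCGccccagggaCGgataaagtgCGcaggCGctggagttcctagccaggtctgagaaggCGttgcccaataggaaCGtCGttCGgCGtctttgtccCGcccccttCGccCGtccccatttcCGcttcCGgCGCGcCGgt

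The windows of the tissue forms held 8, 4 and 1 CpG for Cox6b2, Cox7a1 and Cox8b. Those of the counterparts Cox6b1 and Cox7a2 held 14 each, and that of Cox6a1, a form of another subunit, held 26. Over all 32851 promoters of the same length the median was 6, and over the 74 promoters matched to 69 of the 79 member genes it was 14.5, with a range of 1 to 35. The full palindromic motif of the factor NRF1 was found on either strand in 6.76% of the member promoters and in 0.782% of all promoters. Of the 6 windows shown, the one of Cox6a1 holds it. With 1 letter left free, which includes the full motif, the shares were 17.6% and 3.74%. CCGGAAGT, a motif of ETS factors, was found in 4.05% of member promoters and 2.88% of all, and AANATGGCG, a motif of YY1, in 4.05% and 1.12%. Of the 74 member promoters, 5 held the full NRF1 motif, 3 the ETS motif and 3 the YY1 motif. All promoters are not a background matched for CpG, and the part of CpG in these shares was not tested. None of the other 5 windows shown holds any of these motifs. These matches are descriptions of letters and say nothing of binding.

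As a family the members differed little between groups, far less than the array as a whole in the comparisons with NS cells. The members were also brighter, with array medians of 11.14 to 11.60 on the log2 scale, against 7.35 over all tested probes. All tested probes are thus not a background matched for brightness, and the part of brightness in this contrast was not tested. The median size of a member's log2 difference was 0.24 in hNanog iPS minus NS, 0.26 in mNanog iPS minus NS and 0.25 in ES minus NS. Over all tested probes those medians were 0.74, 0.73 and 0.74. In these comparisons 56, 56 and 51 members passed an adjusted p of 0.05 (limma), or 50.5%, 50.5% and 45.9% of them, beside 75.3%, 74.8% and 75.2% of all tested probes. A change of at least 2-fold was called for 7, 7 and 9 members, or 6.31%, 6.31% and 8.11%, beside 38.2%, 37.8% and 38.1% of all tested probes. The 2 groups of a comparison did not overlap for 60, 63 and 57 of the 111 members, beside 77.9%, 75.7% and 76.2% of all tested probes. The counts of called, 2-fold and non-overlapping members each hold the 2 members detected in NS cells alone, a probe each of Cox8b and Ndufc2. Both passed the detection rule only through the NS arrays and are also among the falls counted below. The 3 comparisons share the NS arrays, so they are not independent of each other.

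**Figure D1:**
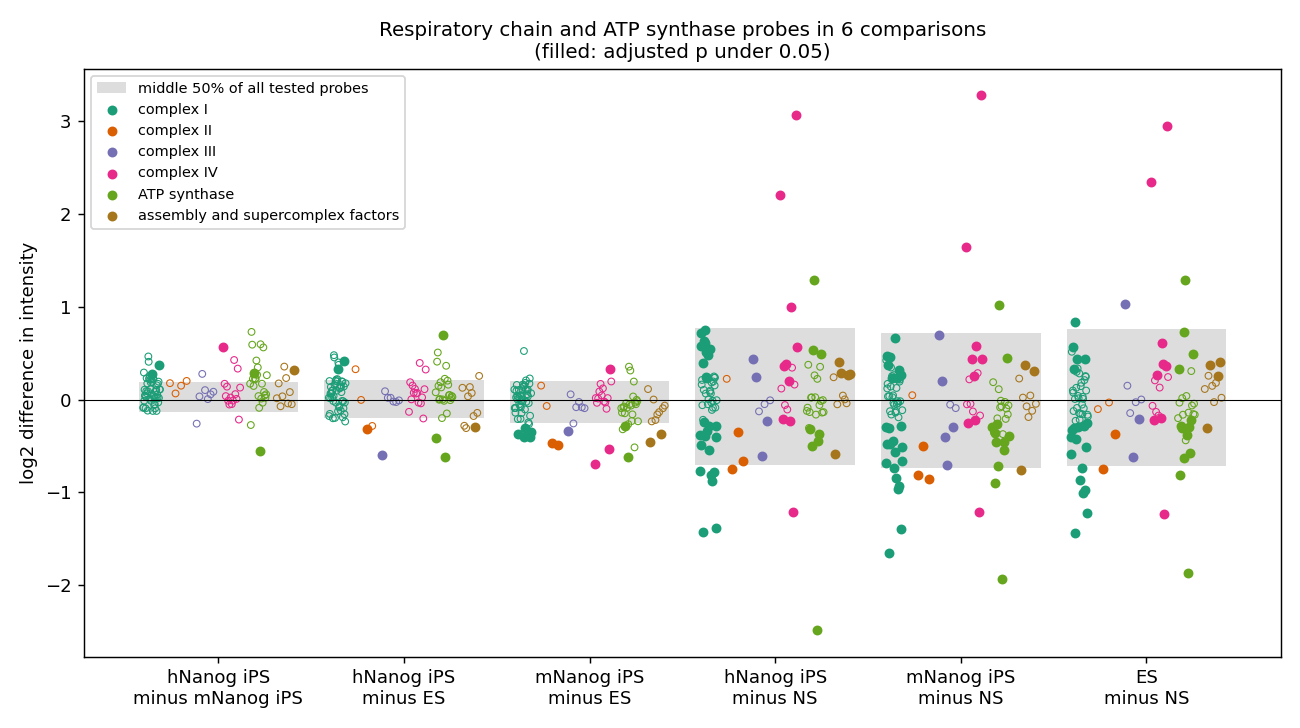
Log2 difference in intensity of each of the 111 member probes (vertical axis) in the 6 comparisons (horizontal axis), coloured by complex; filled points passed an adjusted p of 0.05 and grey bars span the middle 50% of all tested probes. Most members lie inside the grey bars in the comparisons with NS, and the highest points there are Cox6b2 and Cox7a1, both of complex IV.

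Whether the members stood higher or lower than in NS cells as a family depended on how the arrays were scaled. With quantile normalization 27 members rose and 29 fell in hNanog iPS minus NS, 20 rose and 36 fell in mNanog iPS minus NS, and 19 rose and 32 fell in ES minus NS. Over all tested probes 40.6% were called higher and 34.7% lower in hNanog iPS minus NS, 38.9% and 35.9% in mNanog iPS minus NS, and 40.6% and 34.6% in ES minus NS. With median scaling the splits turned to 57 higher and 12 lower, 38 and 21, and 50 and 13, while all tested probes split 8008 and 5756, 7854 and 5716, and 8246 and 5477. With cyclic loess they were 10 higher and 44 lower, 7 and 51, and 7 and 51, while all tested probes split 7022 and 6889, 6988 and 6882, and 7046 and 6821. With the authors' processed values they were 30 and 30, 21 and 40, and 22 and 41, beside 7385 and 6331, 7051 and 6535, and 7395 and 6282 of all tested probes. The median over all tested probes stood at 0.12, 0.08 and 0.11 in the 3 comparisons with quantile normalization and at 0.22, 0.20 and 0.27 with median scaling. The members' own medians under quantile normalization were 0.00, -0.07 and -0.05. No direction is therefore given for the family as a whole against NS cells.

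**Figure D2:**
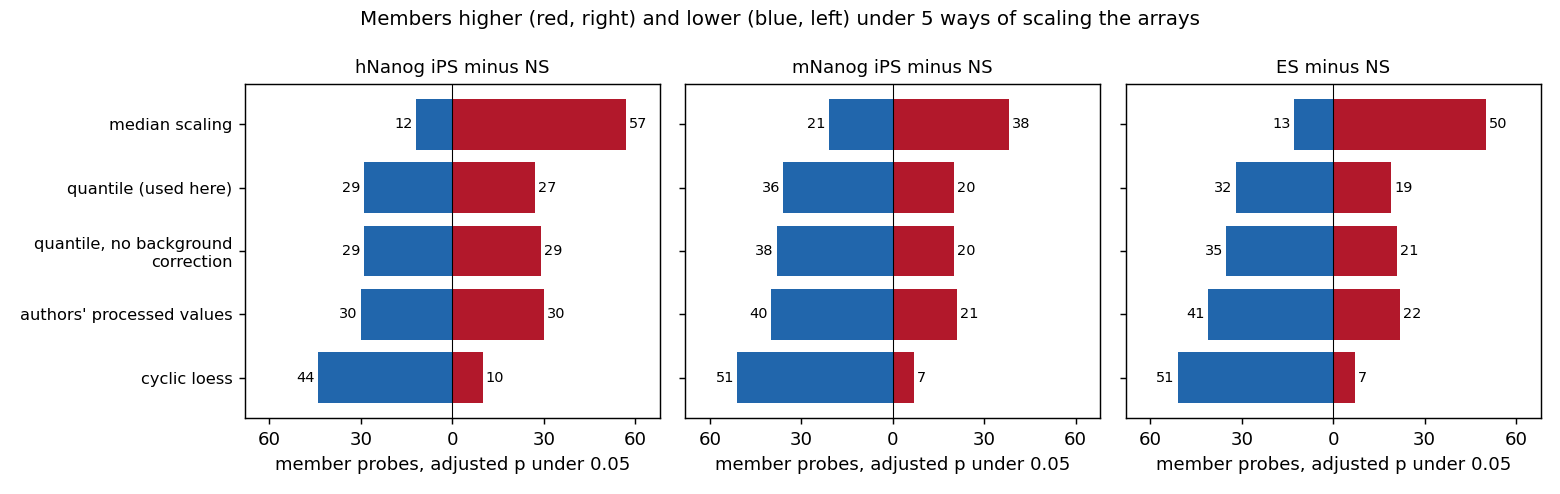
Number of the 111 member probes past an adjusted p of 0.05 (horizontal axis), higher to the right in red and lower to the left in blue, in the 3 comparisons with NS under 5 ways of scaling the arrays (vertical axis). The balance runs the opposite way under median scaling and under cyclic loess.

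Single members could be read through this. The 5 scalings were quantile normalization with and without background correction, median scaling, cyclic loess and the authors' processed values. The quantile pair differs in the handling of background and not in the scaling itself. Under all 5 scalings, 9 members rose and 12 fell in hNanog iPS minus NS, 7 rose and 21 fell in mNanog iPS minus NS, and 7 rose and 13 fell in ES minus NS. The falls include in each comparison the 2 members detected in NS cells alone, a probe each of Cox8b and Ndufc2, which entered the test only through the group where they are high. Members called in opposite directions by different scalings numbered 9, 4 and 13. Among these were Cox4i1 and Ndufa4, the first a widely used subunit of complex IV and the second a protein named for complex I and since placed in complex IV. The genes below are described with their quantile-normalized log2 intensities, and the text says where a call against NS cells did not hold under all 5 scalings. Levels of different probes are not comparable and are not ordered.

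**Figure D3:**
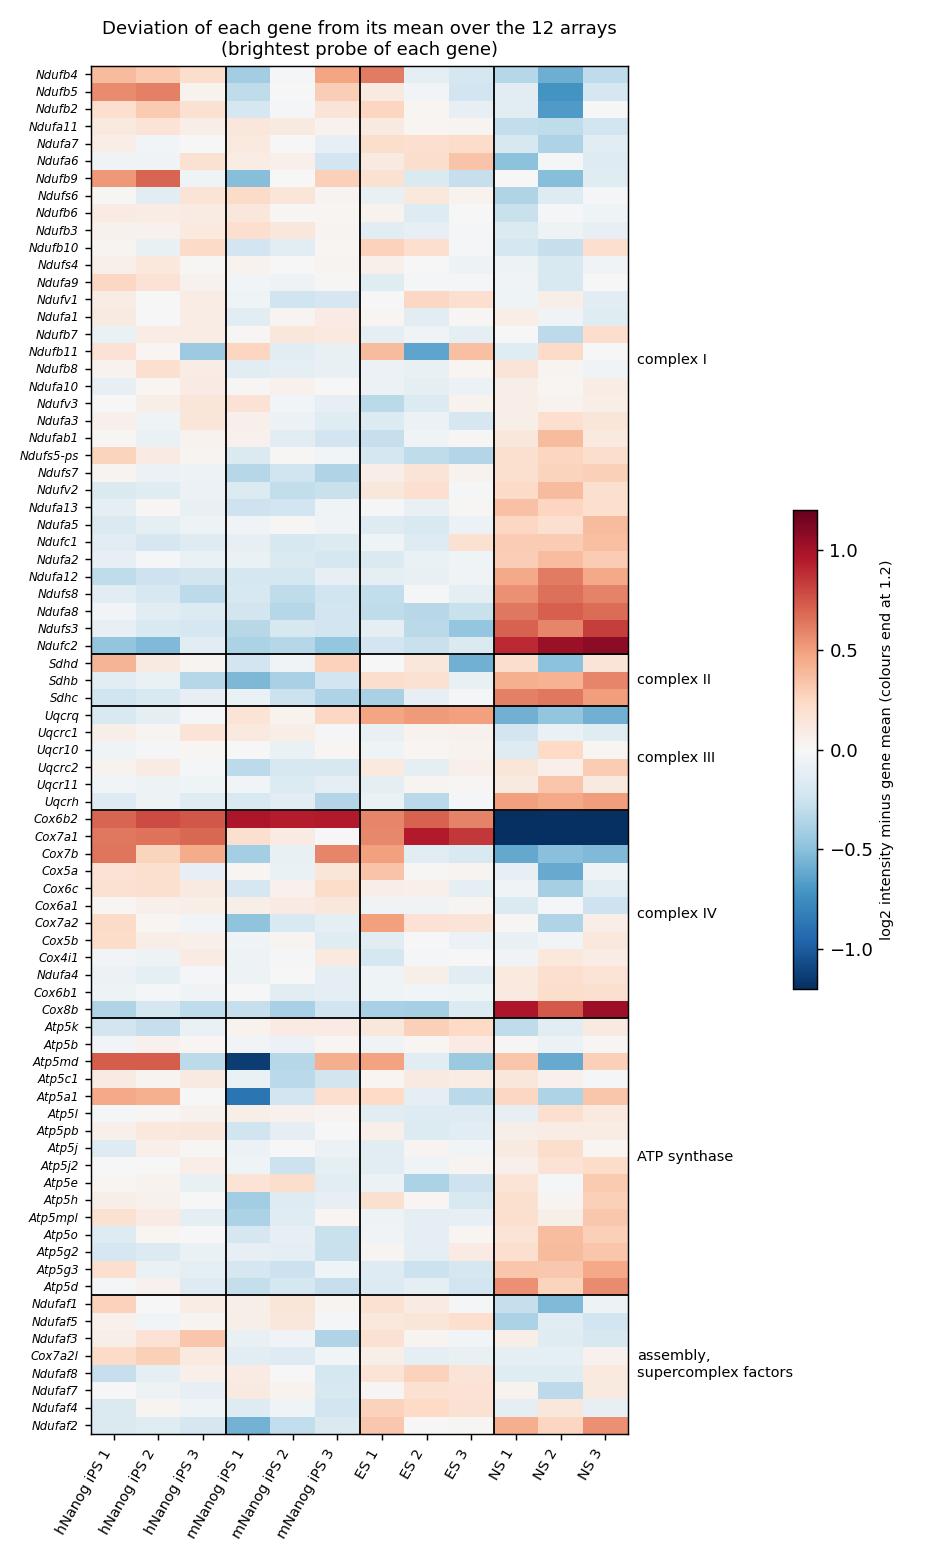
Log2 intensity of the brightest probe of each of the 79 genes (vertical axis, grouped by complex) on the 12 arrays (horizontal axis), minus the gene's mean over the arrays; red is above and blue below that mean, and colours end at a difference of 1.2. Cox6b2 and Cox7a1 are blue on all 3 NS arrays, and Ndufc2 and Cox8b are red there.

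In complex I, the entry point for electrons from NADH, the calls against NS cells were mixed, with 11 members higher and 15 lower in hNanog iPS, 8 higher and 16 lower in mNanog iPS, and 5 higher and 15 lower in ES cells, of 50. Over all tested probes the shares were 40.6% higher and 34.7% lower, 38.9% and 35.9%, and 40.6% and 34.6%, so the share of falls in complex I was near or below that of the array. The subunits that fell under every scaling were led by Ndufc2, an accessory subunit of the membrane arm. Its brighter probe read 11.55, 11.48 and 11.88 on hNanog iPS arrays, 11.64, 11.67 and 11.55 on mNanog iPS arrays, 11.79, 11.75 and 11.85 on ES arrays, against 12.91, 13.06 and 13.09 on NS arrays. Every pluripotent array stood below every NS array. Ndufc2 was thus 2.60-fold lower in hNanog iPS (log2 -1.38 ± 0.11 SE, adjusted p = 1.19e-07), 2.63-fold lower in mNanog iPS (-1.40 ± 0.11, 1.06e-07) and 2.33-fold lower in ES cells (-1.22 ± 0.11, 3.81e-07) than in NS cells. Its other probe, ILMN_1251341, was detected on all 3 NS arrays and on no other array, which puts its level in NS cells at least 1.64-fold above hNanog iPS, 1.53-fold above mNanog iPS and 1.56-fold above ES cells. That probe entered the test only through the NS arrays and is counted among the complex I falls above.

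The core subunits Ndufs3 and Ndufs8, which lie in the arm that carries electrons to ubiquinone, fell with it. Ndufs3 read 10.92, 10.83 and 10.81 in hNanog iPS, 10.68, 10.83 and 10.79 in mNanog iPS, 10.91, 10.70 and 10.55 in ES, against 11.73, 11.61 and 11.85 in NS cells. No pluripotent array reached the lowest NS array, and the differences were -0.87 ± 0.10 in hNanog iPS, -0.96 ± 0.10 in mNanog iPS and -1.01 ± 0.10 in ES cells (SE, adjusted p 6.92e-06, 2.86e-06 and 1.8e-06). Ndufs8 fell by 0.81, 0.85 and 0.74 in the same comparisons (adjusted p 4.48e-06, 3.06e-06 and 1.05e-05). The accessory subunits Ndufa8 and Ndufa12 also fell in all 3, Ndufa12 by 0.77, 0.68 and 0.59. Both probes of Ndufa8 fell, ILMN_2880067 by 0.78, 0.94 and 0.97 and ILMN_2682019 by 0.54, 0.73 and 0.87.

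Fewer complex I members rose under every scaling. The accessory subunit Ndufs6 rose by probe ILMN_1233115, at 0.58 ± 0.11 in hNanog iPS, 0.47 ± 0.11 in mNanog iPS and 0.56 ± 0.11 in ES cells (adjusted p 0.000327, 0.00155 and 0.000411). Its brighter probe ILMN_2842572 passed in mNanog iPS minus NS, at 0.32 (adjusted p = 0.0226), but not under all scalings. Ndufb8, of the membrane arm, rose by its dimmer probe ILMN_2501071, at 0.63, 0.46 and 0.83 (adjusted p 0.000668, 0.00611 and 7.02e-05). Its brighter probe ILMN_2621966 read 12.95 to 13.28 over all 12 arrays and was not called in any comparison with quantile normalization. Ndufb5 rose in hNanog iPS minus NS, by 0.75 ± 0.20 (adjusted p = 0.00451), and also stood 0.44 higher on the brighter than on the dimmer arrays of the same group on average.

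Complex II oxidises succinate and is the one complex of the chain that also works in the citric acid cycle. Its genes Sdhb, Sdhc and Sdhd were read here, while Sdha was not analysed. The iron-sulphur subunit Sdhb was lower in both iPS groups than in ES and NS cells by at least 1 probe. Probe ILMN_2769065 read 10.46, 10.51 and 10.25 in hNanog iPS, 10.06, 10.20 and 10.36 in mNanog iPS, 10.80, 10.77 and 10.50 in ES, against 11.01, 11.01 and 11.18 in NS cells. Each mNanog iPS array lay below each ES array, and each pluripotent array below each NS array. It fell in mNanog iPS minus ES by 0.49 ± 0.12 (adjusted p = 0.00652), in hNanog iPS minus NS by 0.66 ± 0.12 (0.000203) and in mNanog iPS minus NS by 0.86 ± 0.12 (2.09e-05), under all scalings. The fall in ES minus NS, of 0.38 (0.0105), was lost under another scaling and without ES array 3 (adjusted p = 0.053). In hNanog iPS minus ES this probe was not called, at -0.28, while probe ILMN_2769064 fell by 0.32 ± 0.10 (adjusted p = 0.0328) and lost the call without any 1 of 4 arrays. That probe fell by 0.47 ± 0.10 in mNanog iPS minus ES (0.00316).

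The membrane anchor Sdhc read 11.43, 11.49 and 11.57 in hNanog iPS, 11.59, 11.41 and 11.30 in mNanog iPS, 11.28, 11.57 and 11.65 in ES, against 12.27, 12.30 and 12.17 in NS cells. The 3 pluripotent groups overlapped one another and all lay below NS cells, with falls of 0.75, 0.82 and 0.75 (SE 0.11 each, adjusted p 4.7e-05, 2.28e-05 and 4.95e-05). The other anchor, Sdhd, read 7.30 to 8.28 over all arrays and was called in no comparison with quantile normalization.

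Complex III passes electrons to cytochrome c. Its small subunit Uqcrq differed between all groups but the 2 iPS groups. Against NS cells its level ran the opposite way to most called members of complexes I and II with quantile normalization. It read 8.26, 8.32 and 8.43 in hNanog iPS, 8.61, 8.48 and 8.69 in mNanog iPS, 8.92, 8.95 and 8.93 in ES, against 7.87, 7.97 and 7.86 in NS cells. No 2 groups overlapped. Uqcrq was 1.51-fold lower in hNanog iPS than in ES cells (-0.60 ± 0.08, adjusted p = 0.000246) and 1.26-fold lower in mNanog iPS than in ES cells (-0.34 ± 0.08, 0.00851). It was 1.35-fold, 1.62-fold and 2.05-fold higher in hNanog iPS, mNanog iPS and ES cells than in NS cells (adjusted p 0.000463, 8.46e-06 and 1.93e-07). The difference between hNanog iPS and mNanog iPS, -0.26 ± 0.08, missed the threshold (adjusted p = 0.0638). The hinge protein Uqcrh fell against NS cells by 0.60, 0.70 and 0.62 (adjusted p 9.18e-05, 2.39e-05 and 7.04e-05), of which the fall in mNanog iPS held under all 5 scalings. Uqcr11, a small subunit, fell by 0.24, 0.29 and 0.21 with quantile normalization, but with median scaling it stood 0.18, 0.08 and 0.27 higher.

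Complex IV reduces oxygen, and here the forms of its subunits were sharply unequal. The testis form Cox6b2 read 9.82, 9.90 and 9.86 in hNanog iPS, 10.09, 10.07 and 10.07 in mNanog iPS, 9.70, 9.83 and 9.72 in ES, against 6.86, 6.63 and 6.90 in NS cells. It was detected on all 12 arrays, and every pluripotent array lay far above every NS array. Cox6b2 was 8.36-fold higher in hNanog iPS (3.06 ± 0.09, adjusted p = 8.52e-12), 9.71-fold higher in mNanog iPS (3.28 ± 0.09, 4.54e-12) and 7.74-fold higher in ES cells (2.95 ± 0.09, 1.14e-11) than in NS cells. Across the 5 scalings the log2 differences ran from 2.02 to 3.28. It also rose in mNanog iPS minus ES, by 0.33 ± 0.09 (adjusted p = 0.0127). The germ cell marker list had 1 tested gene, Dazl, detected on every hNanog iPS, mNanog iPS and ES array and on no NS array, and the other 6 listed genes were not analysed here. The part of such cells in the values of Cox6b2 was not tested.

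The widely used form of the same subunit, Cox6b1, read 13.59, 13.63 and 13.61 in hNanog iPS, 13.66, 13.52 and 13.55 in mNanog iPS, 13.61, 13.62 and 13.60 in ES, against 13.77, 13.86 and 13.85 in NS cells by probe ILMN_1254971. The pluripotent arrays lay just below the NS arrays. The falls of 0.21, 0.25 and 0.22 with quantile normalization became differences of 0.30, 0.21 and 0.33 in the other direction with median scaling. Its second probe was not called with quantile normalization.

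The heart and muscle form Cox7a1 read 10.40, 10.41 and 10.45 in hNanog iPS, 9.96, 9.86 and 9.76 in mNanog iPS, 10.33, 10.71 and 10.61 in ES, against 8.13, 8.24 and 8.27 in NS cells. The mNanog iPS arrays lay below all hNanog iPS and ES arrays and above all NS arrays. Cox7a1 was 4.62-fold, 3.13-fold and 5.06-fold higher in hNanog iPS, mNanog iPS and ES cells than in NS cells (adjusted p 8.85e-10, 1.54e-08 and 4.83e-10). It rose 1.48-fold in hNanog iPS over mNanog iPS (0.56 ± 0.10, adjusted p = 0.00316) and was 1.62-fold lower in mNanog iPS than in ES cells (-0.69 ± 0.10, 0.000264). Both calls held under all 5 scalings and without any 1 array. In hNanog iPS minus ES it was not called (-0.13 ± 0.10, adjusted p = 0.401).

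Its widely used counterpart Cox7a2 read 8.79, 8.58 and 8.53 in hNanog iPS, 8.08, 8.38 and 8.44 in mNanog iPS, 9.06, 8.74 and 8.72 in ES, against 8.58, 8.21 and 8.64 in NS cells. All mNanog iPS arrays lay below all hNanog iPS and ES arrays, and all NS arrays below all ES arrays, while the other pairs of groups overlapped. It fell in mNanog iPS minus ES by 0.54 ± 0.15 (adjusted p = 0.0134), a call lost without mNanog iPS array 1 (0.056) or ES array 1 (0.055). The rise in ES minus NS, of 0.37, was lost under another scaling and without ES array 1 or NS array 2.

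The heart and muscle form Cox8b ran the other way from Cox7a1 and was detected on the 3 NS arrays alone. It read 4.48, 4.64 and 4.54 in hNanog iPS, 4.57, 4.45 and 4.61 in mNanog iPS, 4.46, 4.45 and 4.68 in ES, against 5.81, 5.59 and 5.88 in NS cells. The level in NS cells was at least 1.18-fold above hNanog iPS, 1.10-fold above mNanog iPS and 1.12-fold above ES cells and close to the detection limit itself. Since the probe entered the test only through the NS arrays, no p is given for it. Cox6a2, the heart and muscle form of subunit 6a, just missed the detection rule, with detection on 2 hNanog iPS arrays. Of 10 heart and muscle markers, 3 were tested. Actc1 was detected on all 3 NS arrays and on no other, and Ttn on all pluripotent arrays and no NS array. Des was detected on 3 hNanog iPS arrays, 1 mNanog iPS array, 1 ES array and no NS array. The other 7 listed genes were not analysed here, and the part of such cells in these values was not tested.

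**Figure D4:**
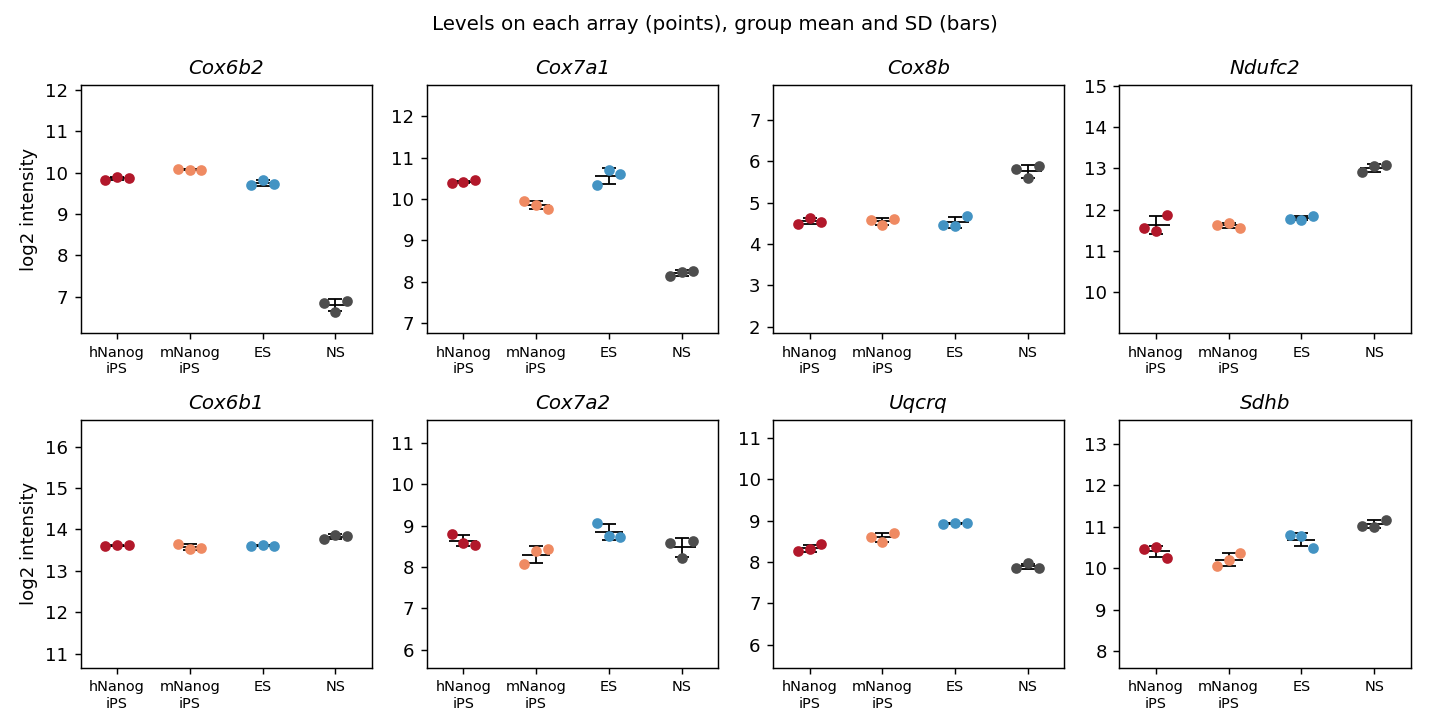
Log2 intensity (vertical axes, each spanning the same range of log2 units) of 8 members on the 3 arrays of each group (points), with the group mean and SD (bars). Cox6b2 and Cox7a1 lie lowest in NS cells and Cox8b and Ndufc2 highest, while Cox6b1 and Cox7a2 stay within 1 log2 unit over the 12 arrays.

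Of the remaining complex IV members, Cox7b rose in hNanog iPS minus NS by 1.00 ± 0.23 (adjusted p = 0.00183) under all scalings. It read 7.87, 7.50 and 7.68 in hNanog iPS, 6.81, 7.14 and 7.82 in mNanog iPS, 7.72, 7.09 and 7.05 in ES, against 6.62, 6.73 and 6.70 in NS cells. Every pluripotent array lay above every NS array, with mNanog iPS and ES arrays widely spread. The rises in mNanog iPS and ES cells, of 0.57 and 0.61, did not hold under all scalings, and without mNanog iPS array 3 the first was 0.29 (adjusted p = 0.19). Cox4i1 read 13.33 to 13.67 over all arrays and was not called with quantile normalization.

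In ATP synthase, the beta subunit of the catalytic head, Atp5b, read 14.85 to 15.01 over the 12 arrays and was not called in any comparison with quantile normalization. Several other genes had probes that did not move alike, and no probe positions were used here. For Atp5j, subunit F6 of the peripheral stalk, the dimmer probe ILMN_2611261 read 6.79, 6.65 and 6.28 in hNanog iPS, 7.15, 7.05 and 7.18 in mNanog iPS, 7.14, 7.43 and 7.01 in ES, against 8.89, 9.12 and 9.16 in NS cells. All pluripotent arrays lay below the NS arrays, and hNanog iPS below mNanog iPS and ES arrays. It was lower than in NS cells by 5.59-fold in hNanog iPS, 3.81-fold in mNanog iPS and 3.64-fold in ES cells (adjusted p 6.85e-09, 7.97e-08 and 1.09e-07). The fall in hNanog iPS minus ES was 0.62 ± 0.14 (adjusted p = 0.00735), and that in hNanog iPS minus mNanog iPS was 0.55 ± 0.14 (0.0236), which was lost without hNanog iPS array 3, mNanog iPS array 1 or mNanog iPS array 3. The brighter Atp5j probe, ILMN_2962632, read 13.16 to 13.53 over all arrays and was not called with quantile normalization.

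The alpha subunit Atp5a1 showed a like split. Probe ILMN_2570875 read 7.74, 7.69 and 7.58 in hNanog iPS, 7.16, 7.36 and 7.70 in mNanog iPS, 7.73, 7.70 and 7.58 in ES, against 6.38, 6.47 and 6.31 in NS cells, with no overlap between pluripotent and NS arrays. It rose 2.44-fold, 2.03-fold and 2.44-fold in hNanog iPS, mNanog iPS and ES cells over NS cells (adjusted p 8.81e-07, 7.81e-06 and 8.74e-07). The other probe, ILMN_2633229, read 9.13 to 10.46, was called in no comparison, and stood 0.58 higher on the brighter than on the dimmer arrays of the same group. Atp5md, a small membrane subunit, and Ndufb9 of complex I showed such a gap too, of 0.98 and 0.51, and these 3 were the members with a gap of at least 0.5.

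The probes of Atp5o, the oligomycin sensitivity protein of the stalk, were called in opposite directions. Against NS cells the brightest, ILMN_1247889, fell by 0.31, 0.46 and 0.31 in hNanog iPS, mNanog iPS and ES cells with quantile normalization, and ILMN_2917540 rose by 0.49, 0.44 and 0.49. Neither call held under all scalings in any of the 3. The third probe, ILMN_1237733, fell by 0.90 in mNanog iPS minus NS (adjusted p = 0.00856) and by 0.81 in ES minus NS (0.0148), both under all 5 scalings, and was not called in hNanog iPS minus NS (-0.31). The call in mNanog iPS held without any 1 array, and that in ES cells was lost without ES array 3 or NS array 3. Atp5d, the delta subunit of the rotor, fell by 0.50, 0.72 and 0.63 (adjusted p 0.000534, 2.49e-05 and 7.99e-05), of which the falls in mNanog iPS and ES cells held under all 5. The genes for subunit c of the membrane ring, Atp5g2 and Atp5g3, fell in all 3 comparisons, Atp5g2 by 0.45, 0.46 and 0.30 and Atp5g3 by 0.37, 0.54 and 0.58. Of these 6 falls, that of Atp5g2 in mNanog iPS held under every scaling. Atp5g3 stood 0.15 higher in hNanog iPS and 0.02 higher in ES cells than in NS cells with median scaling.

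Between the pluripotent groups the differences were small. No member was called with a change of at least 2-fold, beside 2.47% of all tested probes in hNanog iPS minus mNanog iPS, 4.38% in hNanog iPS minus ES and 6.24% in mNanog iPS minus ES. Groups did not overlap for 33, 30 and 33 of the 111 members in these comparisons, beside 33.1%, 41.9% and 44.3% of all tested probes. In mNanog iPS minus ES, 15 members passed, 1 higher and 14 lower, or 13.5% beside 32.8% of all tested probes, with 15.9% called higher and 16.9% lower. The members that fell came from every complex. In complex I they were the NADH-binding subunit Ndufv1 (-0.31), its neighbour Ndufv2 (-0.35), the core subunit Ndufs7 (-0.41), Ndufc1 by probe ILMN_2983247 (-0.41) and Ndufb8 by probe ILMN_2501071 (-0.37). Ndufs7 read 11.53, 11.63 and 11.51 in mNanog iPS and 11.94, 12.02 and 11.91 in ES cells, without overlap (adjusted p = 0.00164). Beside Sdhb, Uqcrq, Cox7a1 and Cox7a2, given above, the others were Atp5c1 (-0.28), the gamma subunit of the rotor, Atp5mpl by probe ILMN_1258022 (-0.62), and the complex I assembly factors Ndufaf2 (-0.46) and Ndufaf4 (-0.38). That Atp5mpl probe was detected on 1 mNanog iPS array and on all 3 ES arrays. The single rise was that of Cox6b2. Of the 15, 14 held under all 5 scalings, Ndufb8 being the exception. With single arrays left out, run for all but Ndufv1 and Ndufv2, the calls of Ndufb8, Atp5c1, Cox7a2 and Ndufaf2 were each lost without at least 1 array. The fibroblast markers detected in the mNanog iPS group accompany these values.

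Against ES cells, 8 members passed in hNanog iPS, 3 higher and 5 lower, or 7.21% beside 26.1% of all tested probes, with 13.7% called higher and 12.4% lower. The falls were those of Uqcrq, Atp5j by its dimmer probe and Sdhb by 1 probe, with Atp5k, subunit e of the membrane part (-0.42, adjusted p = 0.0129), and Ndufaf4 (-0.30, 0.039). The rises were a probe annotated to Ndufs5-ps, a pseudogene of a complex I subunit (0.42, 0.0041), Ndufa8 by probe ILMN_2682019 (0.33, 0.0163) and Atp5pb by probe ILMN_2584887 (0.70, 0.0236). All 5 falls and the rise of Ndufs5-ps held under all 5 scalings, while the rises of Ndufa8 and Atp5pb did not. The Atp5pb probe was detected on 2 hNanog iPS arrays and no ES array. The signals of a pseudogene and its parent gene may not be separable on a probe. Without any 1 array 3 of the 8 calls held, those of Uqcrq, Atp5j and Ndufs5-ps. The count dropped to 5 without hNanog iPS array 1 or 2 and to 3 without ES array 2.

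Between the iPS groups, hNanog iPS minus mNanog iPS, 6 members passed, 5 higher and 1 lower, or 5.41% beside 13.7% of all tested probes, with 6.42% called higher and 7.3% lower. Cox7a1 rose, with Ndufc1 by probe ILMN_2983247 (0.37, adjusted p = 0.0283), Ndufs7 (0.28, 0.0323), Atp5c1 (0.29, 0.0442) and Cox7a2l (0.32, 0.034), a factor that joins complexes III and IV. Atp5j fell by its dimmer probe. Ndufc1, Ndufs7, Atp5c1 and Cox7a1 are also among the falls of mNanog iPS minus ES, and the comparisons share the mNanog iPS arrays. Under all 5 scalings Ndufc1, Cox7a1 and Atp5j held their calls. The count dropped to 2 without any 1 of the 3 hNanog iPS arrays or without mNanog iPS array 1, and of the 6 calls that of Cox7a1 held whichever array was left out.

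Other mitochondrial genes were read from lists of proteins that work beside the members, taking 1 probe a gene. The complex I assembly list is in part an exception, since it holds Ndufaf genes that are members themselves. The balance of rises and falls against NS cells differed from list to list, which was described and not tested. The shares over all tested probes to set beside these counts are 40.6% higher and 34.7% lower in hNanog iPS, 38.9% and 35.9% in mNanog iPS, and 40.6% and 34.6% in ES cells. The list of mitochondrial transcription, replication and translation had 12 of 15 tested genes higher and 1 lower in hNanog iPS, 11 higher and 2 lower in mNanog iPS, and 12 higher and 1 lower in ES cells, with median log2 differences of 0.60, 0.51 and 0.75. Tfam, which packages mitochondrial DNA, rose by 0.83, 0.63 and 0.81, the helicase Twnk by 1.07, 0.86 and 0.89, and the polymerase Polg fell by 0.63, 0.68 and 0.84. Under the other scalings this list had 9 to 12 genes higher and 1 to 3 lower.

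The list of the citric acid cycle and pyruvate entry went mostly the other way against NS cells. Of its 20 tested genes, 3 were higher and 11 lower in hNanog iPS, 3 and 12 in mNanog iPS, and 2 and 12 in ES cells. Their medians were -0.37, -0.52 and -0.47. Citrate synthase, Cs, fell by 0.74, 0.98 and 1.13, Idh3a by 1.14, 1.47 and 0.79, and Dlat, of the pyruvate dehydrogenase complex, by 1.15, 1.33 and 1.03. Pdk4, a kinase that restrains that complex, was detected on all pluripotent arrays and on no NS array, which puts it at least 1.85-fold, 1.73-fold and 2.07-fold above NS cells. With median scaling the splits were 7 higher and 8 lower, 4 and 10, and 5 and 9.

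**Figure D5:**
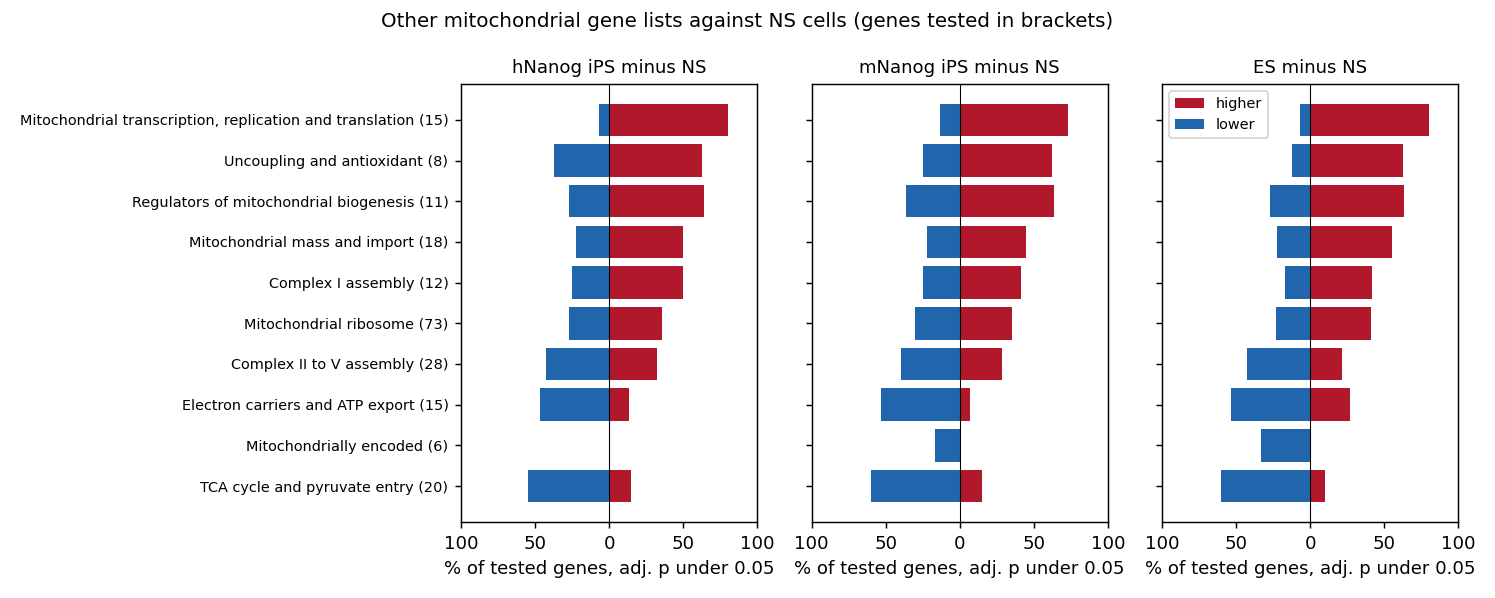
Share of the tested genes of each list (vertical axis, number tested in brackets) that passed an adjusted p of 0.05, higher to the right in red and lower to the left in blue, in the 3 comparisons with NS under quantile normalization. The list of mitochondrial transcription, replication and translation lies mostly to the right. The list of the citric acid cycle and pyruvate entry lies mostly to the left.

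Electron carriers and ATP export had 2 of 15 genes higher and 7 lower in hNanog iPS, 1 and 8 in mNanog iPS, and 4 and 8 in ES cells against NS cells. Cycs, the cytochrome c of body cells, fell by 1.10, 1.28 and 0.89, and Coq9, needed to make ubiquinone, by 1.46, 1.56 and 1.51. The carrier Slc25a5, which exchanges ADP and ATP, fell by 0.85, 1.01 and 0.87. With median scaling this list split 4 and 6, 3 and 6, and 7 and 7. Of the 6 mitochondrially encoded subunits tested, 0 were called in hNanog iPS minus NS by limma (2 at an unadjusted p under 0.05), 1 fell in mNanog iPS and 2 fell in ES cells, and with median scaling 4, 3 and 3 rose instead.

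The factors that assemble the complexes moved in both directions. Of 28 genes for the assembly of complexes II to V, 9 rose and 12 fell in hNanog iPS, 8 and 11 in mNanog iPS, and 6 and 12 in ES cells against NS cells. Tmem70, which serves ATP synthase, fell by 1.73, 1.75 and 1.34, and Cox17, a copper chaperone for complex IV, rose by 1.11, 1.16 and 0.94. Uqcc2, which serves complex III, differed between all 4 groups, at 11.02 ± 0.12 in hNanog iPS, 10.33 ± 0.10 in mNanog iPS, 11.79 ± 0.11 in ES and 12.38 ± 0.21 in NS cells (SD, n = 3 each). It was 0.70 higher in hNanog iPS than in mNanog iPS, and fell by 0.77 in hNanog iPS minus ES and by 1.46 in mNanog iPS minus ES. Among 12 tested complex I assembly genes, Acad9 rose in mNanog iPS minus ES by 1.04 and was 0.75 lower in hNanog iPS than in mNanog iPS. The 73 mitochondrial ribosome genes split 26 higher and 20 lower, 26 and 22, and 30 and 17 against NS cells, turning to 20 and 33, 19 and 34, and 25 and 27 with cyclic loess, so with quantile normalization the rises were near the 40.6%, 38.9% and 40.6% of all tested probes. In mNanog iPS minus ES 3 of them rose and 19 fell, beside 15.9% and 16.9% of all tested probes.

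Among 11 tested regulators of mitochondrial biogenesis, the coactivator Ppargc1a was detected on the 3 NS arrays alone, at 7.62 ± 0.33 (SD, n = 3), at least 4.31-fold above hNanog iPS, 4.01-fold above mNanog iPS and 4.09-fold above ES cells. Its relative Pprc1 ran the other way and rose by 1.83, 1.71 and 2.26 against NS cells. The nuclear receptor Esrra fell by 1.43, 1.74 and 1.40, while Esrrb, also a pluripotency factor, rose by 7.44, 7.46 and 7.44. Nrf1, the factor whose motif was searched for above, fell in hNanog iPS minus ES by 0.69 and in mNanog iPS minus ES by 0.63, and against NS cells by 0.51 and 0.45, with no call in ES minus NS (0.18). These calls of Pprc1, Esrra, Esrrb and Nrf1 held under all 5 scalings, and Ppargc1a, which entered the test only through the NS arrays, is given as a description. Of the uncoupling and antioxidant genes, the glutathione peroxidase Gpx1 rose by 1.65, 1.74 and 1.52 against NS cells. In the list of mitochondrial mass and import the fusion protein Mfn2 fell by 1.38, 1.48 and 1.57, while 9, 8 and 10 of its 18 genes rose and 4 fell in each comparison.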

How the data were processed

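Per the file headers, one deposited table gives each probe's mean signal as intensity on a linear scale without normalization, with a detection p-value per array. Their second deposited table holds processed values, taken here as log2 because they rise with log2 signal. No source here names the scanning software. In R 4.3.3, limma 3.58.1 (neqc) took background from the detection p-values, with offset 16, followed by quantile normalization. The 18185 probes detected at p under 0.01 on at least 3 arrays were fitted together with 4 group means (lmFit, eBayes), and p-values were adjusted over all of them (Benjamini-Hochberg, called under 0.05). Differences are log2, first group minus second, with standard errors. A probe detected on no array of a group has a lower bound there, set by the lowest signal detected on each array. Precision rests on 3 arrays a group.

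The symbol rule was read as exactly Sdha to Sdhd. Members, lists, tests and alternatives were chosen with earlier results of these data known. Named were all Sdh genes, the paralogs of subunits, per complex up to 3 members each way in each comparison among those called without overlap, members nearest the detection rule, genes whose probes disagree, and up to 3 genes each way from a list. Ndufs8, Ndufa12, Ndufv1, Ndufv2, Atp5b, Atp5md, Ndufb9, the falls of Ndufa8 against NS cells and the marker genes fall outside that rule. They were picked once values were known. The falls of Ndufs8, Ndufa12 and Ndufa8 against NS cells were not examined with single arrays left out. Residual correlations of replicates with the same number ran in both directions, and samples were not paired by number in the main fit. Alternatives covered background, scaling, filters, weights, blocks and single arrays left out. Promoters, 250 bases before the start, come from RefSeq.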

Additional observations from a re-analysis of the deposited data

How the results depend on the processing

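The number of members called in each comparison was recomputed under every alternative, 1 choice at a time. In hNanog iPS minus mNanog iPS, 6 members became 11 with the authors' processed values, 17 with array weights, 3 in a fit of the compared groups alone, 1 on the brighter arrays alone and 0 on the dimmer arrays alone (limma, 6 at an unadjusted p under 0.05), and 2 to 6 with 1 array left out. In hNanog iPS minus ES, 8 became 16 with the authors' values, 14 with an intensity trend and robust prior, 16 with array weights, 13 with brightness as a block, 3 on brighter and 0 on dimmer arrays (7 at an unadjusted p under 0.05), 4 with 1 probe a gene, and 3 to 10 with 1 array left out. In mNanog iPS minus ES, 15 became 4 on brighter and 3 on dimmer arrays, and 12 to 17 with 1 array left out. On the dimmer arrays 27 members were called in hNanog iPS minus NS and 33 in ES minus NS. With 1 array left out the counts against NS were 46 to 56 for hNanog iPS, 48 to 57 for mNanog iPS and 42 to 52 for ES. Asking for a 2-fold change as well left 0 members in each comparison between pluripotent groups, and 7, 7 and 9 in those with NS. The counts with NS hold the 2 members detected in NS cells alone. The replicate block, given below, moved the count in hNanog iPS minus mNanog iPS by more than 1.5 times. Under the other alternatives each count stayed within 1.5 times. Fits on brighter or dimmer arrays hold 1 or 2 arrays a group and assume that a lone array varies like the other groups.

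Of 126 named calls, 45 held under every alternative and 78 were lost under at least 1. The calls that held include those of Cox8b and of Ndufc2 probe ILMN_1251341 against NS cells. Both probes entered the test only through the NS arrays, so their calls are no measure of stability. The signs of 15 calls turned, with median scaling alone, and some of these calls were also lost under another alternative. The cause was not tested. The values below also hold Cox4i1 and the Cox6b1 probe ILMN_2616405. Neither is among the named calls, since neither was called against NS cells with quantile normalization. In ES minus NS the values became 0.016 for Atp5g3, 0.25 for Atp5mpl (ILMN_1239677), 0.30 for Atp5o (ILMN_1247889), 0.39 for Cox4i1, 0.33 and 0.26 for the Cox6b1 probes, 0.35 for Ndufa4 and 0.27 for Uqcr11. In hNanog iPS minus NS they became 0.15 for Atp5g3, 0.26 for Atp5o, 0.38 for Cox4i1, 0.30 for both Cox6b1 probes, 0.25 for Ndufa4 and 0.18 for Uqcr11. In mNanog iPS minus NS they became 0.054 for Atp5o, 0.37 for Cox4i1, 0.21 for Cox6b1, 0.22 for Ndufa4 and 0.077 for Uqcr11. Counting calls shared by 5 scalings was chosen after seeing the data.

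With the replicate number as a block, 3, 7, 15, 52, 54 and 46 members were called in hNanog iPS minus mNanog iPS, hNanog iPS minus ES, mNanog iPS minus ES, hNanog iPS minus NS, mNanog iPS minus NS and ES minus NS. Same-numbered arrays had residual correlations of -0.51 to 0.37. Arrays of different groups correlated at a median of 0.30 with the same brightness and -0.25 with different brightness. These values therefore cannot show whether a number marks a shared batch or culture. A slide block was not run, since no source here gives the slides. Probe brightness limits dim members such as Cox8b.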
